A study of Mus musculus with 11 samples.

Results

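The 10 genes described here encode enzymes that build glycerolipids: the glycerol-3-phosphate acyltransferases Gpam, Agpat6 (now Gpat4) and Agpat9 (now Gpat3), the acylglycerolphosphate acyltransferases Agpat2, Agpat3 and Agpat4, the phosphatidate phosphatase Lpin1, the diacylglycerol acyltransferases Dgat1 and Dgat2, and the monoacylglycerol acyltransferase Mogat1. They were chosen by symbol, and all 10 were among the 15453 genes measured in each mouse. No gene of the 10 differed between genotypes at an adjusted p of at most 0.1. At an unadjusted p of at most 0.05 (limma), Agpat6 was higher and Agpat4 lower in mice without paternal Mest. Of 9906 expressed genes (defined below), 4.85% were higher and 5.77% lower at that p. Agpat4 was not at that p with edgeR (0.062), with DESeq2 (0.054) or without some single mice. Dgat2 was far below the wildtype range in 2 of the 5 mutant mice, replicates 3 and 5. In these mice 19.3% and 25% of the expressed genes were below every wildtype mouse.

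Epididymal white adipose tissue (eWAT) was taken from 16 week old male C57BL/6 mice (C57BL/6J in the study's methods) that had eaten a high fat diet from the age of 8 weeks. A group of 6 wildtype mice (WT) was compared with 5 littermates of genotype Mest+/- that had inherited the inactivated allele from their father (Mest pKO). Mest is an imprinted gene transcribed from the paternal copy, so a heterozygous mouse with an inactivated paternal allele has lost its active copy. Exon 3 had been deleted in the germline with EIIa-cre, so the allele was inactive in every tissue and not in adipocytes alone. The mice of both genotypes had been picked from a larger cohort. In the study the picked WT mice had a higher ratio of fat to lean mass after the diet than the picked pKO mice. Genotype and adiposity therefore cannot be told apart in the comparisons below. Gene expression was measured by SOLiD SAGE (serial analysis of gene expression), which counts 1 short tag next to the last NlaIII site of each transcript, so a level does not depend on transcript length. The deposited values are counts of tags scaled for library size by the authors, and are called normalized tags below.

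Triglyceride is made stepwise in the endoplasmic reticulum and the outer mitochondrial membrane. A glycerol-3-phosphate acyltransferase (GPAT) adds the first fatty acid to glycerol 3-phosphate and gives lysophosphatidic acid. An acylglycerolphosphate acyltransferase (AGPAT) adds the next and gives phosphatidic acid, a lipin removes the phosphate to give diacylglycerol, and a diacylglycerol acyltransferase (DGAT) adds the last fatty acid. Monoacylglycerol acyltransferases reach diacylglycerol by another route, from monoacylglycerol. In white adipose tissue this pathway fills the lipid droplet, and loss of AGPAT2 causes congenital lipodystrophy in humans.

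A member is measured by the tag at its last NlaIII site, and predicted tags of the genes on which the results turn are shown here. Each was predicted as the last NlaIII site (CATG, in capitals) of a GENCODE M21 transcript linked to RefSeq, with the 23 bases that follow it, on the strand of the gene and 5′ to 3′. The tags of Agpat6, Agpat9 and Agpat4 are shown because these genes had the largest differences of the acylation steps, and those of Dgat2 and Dgat1 because they belong to the last step.
Agpat6: CATGatgacttcttaccagctaggtaa
Agpat9: CATGagctatatttgatagtgatctat
Agpat4: CATGgtgctgcgtcttctctaaccctc
Dgat2: CATGtcacacttttgtatattcctaga
Dgat1: CATGtatgtccacgactactacgtgct
In GRCm38 these tags lie at chr8:23172040-23172066 (minus strand, exon 13 of 13 of Agpat6), chr5:100898974-100899000 (plus strand, exon 13 of 13 of Agpat9), chr17:12219525-12219551 (plus strand, exon 9 of 9 of Agpat4), chr7:99153683-99153709 (minus strand, exon 8 of 8 of Dgat2) and chr15:76502264-76502290 (minus strand, exon 17 of 17 of Dgat1). The tag of Dgat1 was in coding sequence and the other 4 were in 3′ untranslated regions. The Dgat2 site was 52 bases from the end of its transcript and the Agpat6 site 802 bases. None of the 10 predicted tags was found anywhere in a GENCODE M21 transcript of any other gene. The closest pair, Agpat3 and Agpat4, differed at 10 of 27 bases. The table by which the authors assigned tags to genes is not given in the sources used here, so the tags counted may differ from those predicted. For Gpam and Lpin1 the annotated transcripts gave 2 different tags each, and for the other 8 members 1 tag each.

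The libraries held 9659740 to 14825727 tags. The targeted gene Mest was at 20756 to 27897 normalized tags in WT mice (median 26018) and at 1479, 793, 1978, 2275 and 1792 in pKO replicates 1 to 5. No pKO value reached a WT value, and the log2 difference was -3.99 (standard error 0.22, adjusted p = 1.2e-06, limma). Defining markers of adipocytes (Adipoq, Fabp4, Plin1, Cidec and Lipe) were abundant in every mouse, with a summed level of 611928 to 1005678 in WT and 657013 to 1056567 in pKO mice. Most of this sum was Fabp4. Below the WT range were Lipe in pKO 1 (6065, WT 12014 to 17662) and Adipoq in pKO 2 (53365, WT 59638 to 81109). Each of the markers was above its WT range in some pKO mouse. Libraries of pKO mice stood further apart from each other than those of WT mice: the median coefficient of variation (SD over mean) of all expressed genes (the 9906 that averaged 50 or more normalized tags in WT or in pKO mice) was 15.5% in WT and 23.2% in pKO mice, and it was higher in pKO for 73.5% of these genes. Among the members it was higher in pKO for 9 of 10, with Agpat2 the exception.

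The plot of member values by mouse shows tag levels that differed widely between steps. Whether the tags of different genes were captured and assigned equally well was not tested, so the order below is one of tags. Dgat2 was by far the most abundant member, at 95592 ± 12248 normalized tags in WT (SD, n = 6), which was 28.2 times the mean of Dgat1. In WT mice it ranked between 5 and 11 among all genes and took 0.574% to 0.891% of the tags. Dgat1 (3395 ± 554), Lpin1 (2608 ± 314), Agpat2 (1987 ± 597), Agpat6 (1730 ± 187) and Agpat9 (1172 ± 285) formed a middle group of normalized tags in WT (SD, n = 6 each). Agpat3 (409 ± 48.8), Gpam (306 ± 52.0), Mogat1 (205 ± 52.1) and Agpat4 (146 ± 14.9) were the least abundant (SD, n = 6 each). Along this order the WT ranges of neighbours were apart only between Dgat2 and Dgat1 and between Agpat9 and Agpat3. Within single mice most neighbours kept their order in 6 of 6 WT mice. The exceptions were Lpin1 over Agpat2 (5 of 6) and Agpat2 over Agpat6 (4 of 6).

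**Figure D1:**
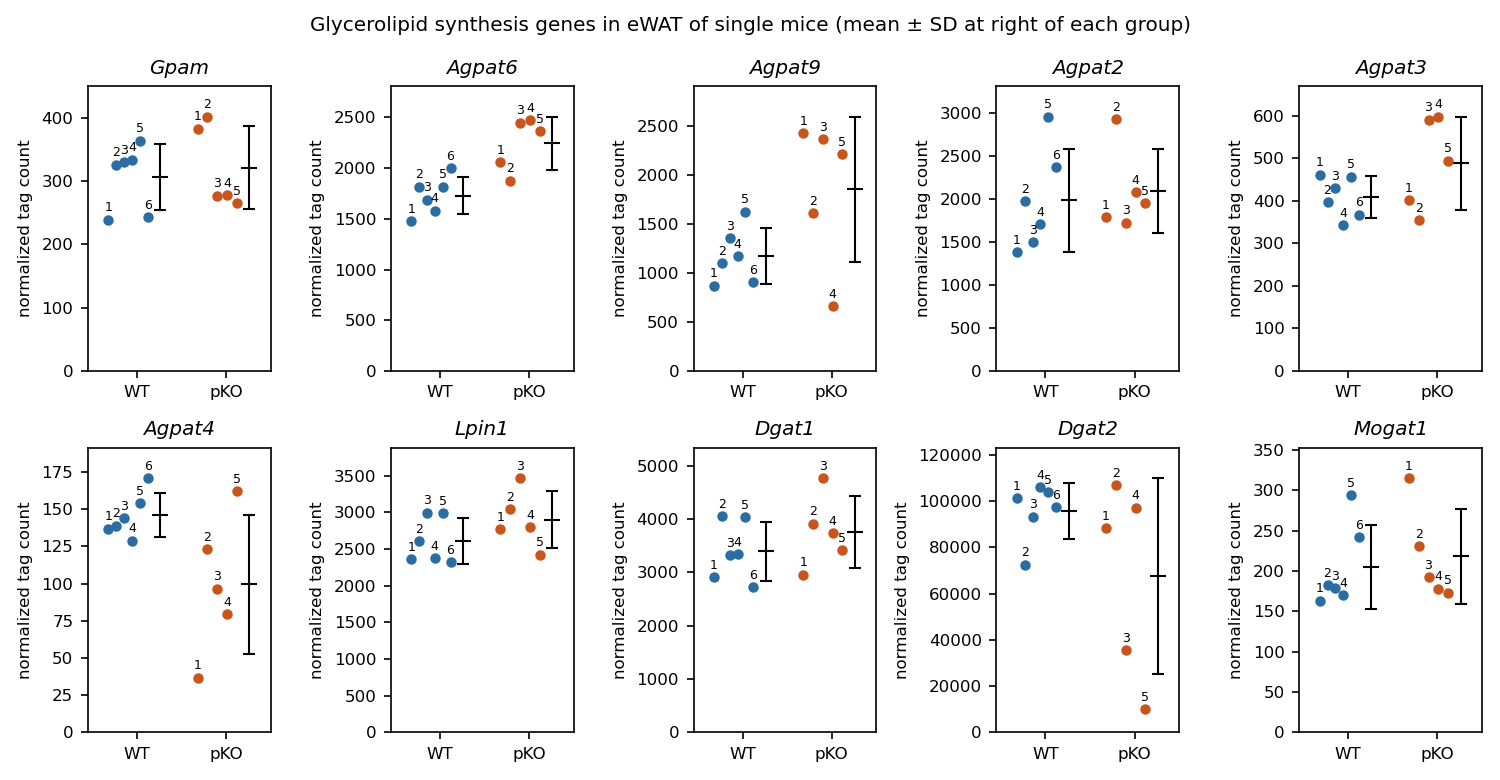
Normalized tag counts of the 10 members in eWAT of single mice, by genotype, with the replicate number at each point and the mean ± SD (6 WT in blue, 5 Mest pKO in orange) beside each group. Agpat6 is higher in pKO with an overlap of pKO 2 and WT 6, and Dgat2 is low in pKO 3 (35600) and pKO 5 (9904) and within or close to the WT range in the other 3.

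WT and pKO mice were compared to find differences in eWAT transcripts that go with loss of paternal Mest. For the 10 members the lowest adjusted p was 0.37 and the highest 0.94 (limma over all 15453 genes, Benjamini-Hochberg), so none passed an adjusted p of at most 0.1, and none did with edgeR or DESeq2. Among the 9906 expressed genes 5 did, or 0.0505%. That count was 121 with DESeq2 and 3 to 91 with 1 mouse left out, the highest without pKO replicate 2. All 10 members were among the expressed genes. At an unadjusted p of at most 0.05, 1 member was higher in pKO (Agpat6) and 1 was lower (Agpat4), where 4.85% of all these genes were higher and 5.77% lower. Leaving out pKO replicates 3 and 5 left 1 of the 10, Agpat4, and leaving out single mice gave between 1 and 4. No member had WT and pKO ranges that were apart, as 1.43% of the genes had. The median log2 difference (pKO minus WT) was 0.12 over the members and 0.01 over all expressed genes, and 8 of the 10 members had a positive and 2 a negative difference.

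**Figure D2:**
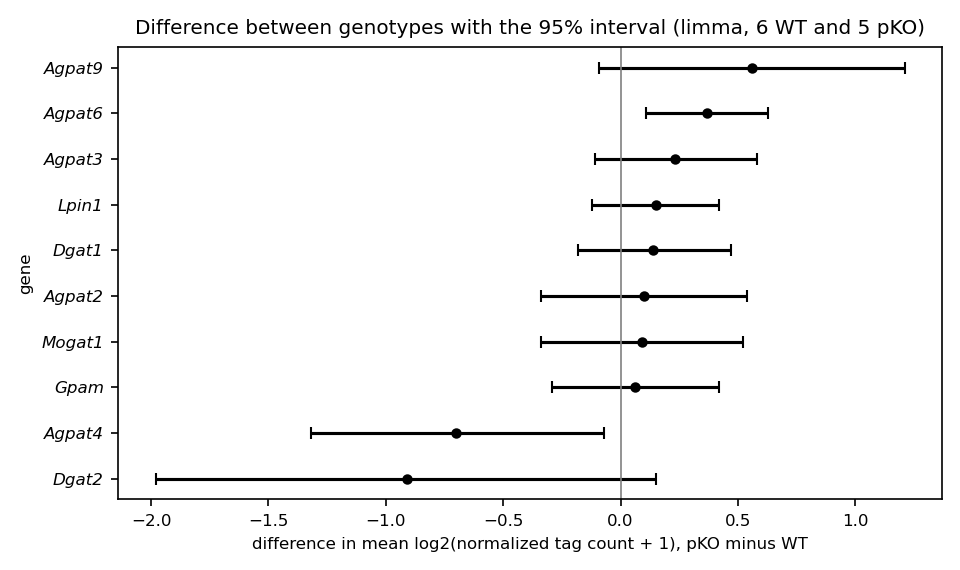
Difference between genotypes of each member on the log2(normalized tags + 1) scale, pKO minus WT, as a point with its 95% interval (limma, 6 WT and 5 pKO). The intervals of Agpat6 (0.11 to 0.63) and Agpat4 (-1.32 to -0.07) lie beside 0 and those of the other 8 members include it.

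By tags, Agpat6 and Agpat9 were the abundant GPAT genes of the first step and Gpam a minor one. Gpam had 2 candidate tags, and whether its tags were counted as fully as the others was not tested. Agpat6 encodes GPAT4, an enzyme of the endoplasmic reticulum and of lipid droplets. It was at 1476 to 1998 normalized tags in WT mice (median 1753) and at 2062, 1875, 2448, 2473 and 2365 in pKO replicates 1 to 5. Thus 4 pKO mice were above every WT mouse, and only pKO 2 overlapped with the WT range. The log2 difference was 0.37 (standard error 0.12, unadjusted p = 0.0082, adjusted p = 0.37, limma), and an exact permutation test over the 462 possible assignments of the mice gave p = 0.0065. In these bulk samples more cells that express a gene and more RNA per cell cannot be told apart. The difference stayed between 0.33 and 0.44 when any single mouse was left out, and was 0.30 (unadjusted p = 0.056, limma) without pKO replicates 3 and 5.

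Agpat9 encodes GPAT3, a GPAT of the endoplasmic reticulum that is abundant in adipocytes. WT mice had 873 to 1626 normalized tags (median 1136), and pKO replicates 1 to 5 had 2433, 1609, 2367, 662 and 2212. Of the pKO mice 3 were above the WT range, pKO 2 was inside it and pKO 4 was below it. With this spread the log2 difference of 0.56 (95% interval -0.09 to 1.21, limma) had an unadjusted p of 0.086, and the exact permutation p was 0.15. Of the single mice, pKO replicate 4 moved this value most. Without that mouse the difference was 0.89 (unadjusted p = 0.00047, adjusted p = 0.23, limma). As pKO 4 had the lowest Agpat9 value and is named for it, this is no test of Agpat9. Without pKO replicates 3 and 5 it was 0.26. On the recovered tag counts, edgeR and DESeq2 gave differences of 0.66 with unadjusted p of 0.033 and 0.024.

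Gpam encodes the mitochondrial GPAT1. It was at 239 to 364 normalized tags in WT mice (median 328) and at 383, 402, 277, 278 and 265 in pKO replicates 1 to 5. The ranges overlapped, and pKO 1 and pKO 2 were above every WT mouse. Its log2 difference of 0.06 (95% interval -0.29 to 0.42, exact permutation p = 0.70) changed sign with the mice left out. Agpat6 made up 54.2% ± 5.76 of the tags of the 3 GPAT genes in WT (SD, n = 6) against 52.0% ± 11.8 for pKO (SD, n = 5). In pKO 4, the mouse with the fewest Agpat9 tags, its share was 72.5%, against 42.3% in pKO 1, where Agpat9 was the larger part. The summed level of the 3 genes was 2589 to 3806 in WT and 4878, 3886, 5092, 3413 and 4842 in pKO replicates 1 to 5, so 4 of the 5 pKO mice were above every WT mouse. This sum was not tested, and the share of all expressed genes with such a count was not determined. Most expressed genes were more spread among pKO than among WT mice.

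**Figure D3:**
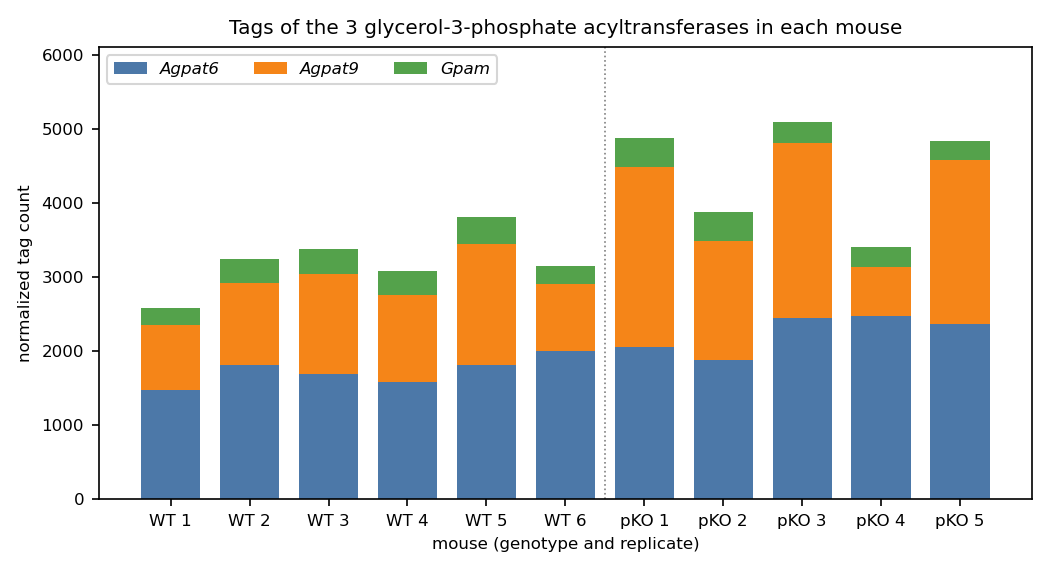
Stacked normalized tag counts of the GPAT genes Agpat6, Agpat9 and Gpam in each mouse (6 WT left and 5 Mest pKO right of the dotted line). The sums reach 3806 in WT and 5092 in pKO mice, and pKO 4 stands out with 662 Agpat9 tags of 3413.

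In the second acylation step Agpat2 held most tags, with 77.3% ± 5.12 of the tags of Agpat2, Agpat3 and Agpat4 in WT (SD, n = 6) against 77.6% ± 5.64 for pKO (SD, n = 5). Agpat2 was at 1387 to 2964 normalized tags in WT mice (median 1846) and at 1792, 2935, 1727, 2080 and 1952 in pKO mice. Every pKO value was inside the WT range, and the log2 difference was 0.10 (95% interval -0.34 to 0.54, exact permutation p = 0.66). The highest values of both genotypes, in WT 5 and pKO 2, were nearly the same. Agpat3, whose enzyme is found in the endoplasmic reticulum and the Golgi, was at 342 to 461 in WT (median 413) and at 402, 354, 591, 598 and 494 in pKO mice. Here 3 pKO mice were above the WT range and the other two inside it, which gave a log2 difference of 0.23 (95% interval -0.11 to 0.58, exact permutation p = 0.17). Without pKO replicate 2 the difference was 0.34 (unadjusted p = 0.042, limma). As pKO 2 had the lowest Agpat3 value of the pKO mice, this is no test of Agpat3.

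Agpat4, the least abundant of the AGPAT genes here, was the only one of them with a negative difference. It was at 129 to 171 normalized tags in WT mice (median 141) and at 36.9, 123, 96.7, 79.4 and 162 in pKO replicates 1 to 5. In this gene 4 pKO mice were below every WT mouse, and pKO 5 was as high as the upper WT values. The log2 difference was -0.70 (standard error 0.29, unadjusted p = 0.031, adjusted p = 0.48, limma) and the exact permutation p was 0.030. The lowest value, in pKO 1, rested on 43 tags (exact 95% Poisson interval 31.1 to 57.9, for counting error only), so its distance from the WT values was not within counting error. It carried much of the size of the difference, which was -0.38 (unadjusted p = 0.064, limma) without that mouse. The unadjusted p was also above 0.05 without pKO replicate 4 (0.062), WT replicate 5 (0.051) or WT replicate 6 (0.059), and with edgeR (0.062) and DESeq2 (0.054). As a share of the 3 AGPAT genes, Agpat4 was 5.91% ± 0.971 in WT (SD, n = 6) against 3.66% ± 1.67 for pKO (SD, n = 5).

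Lpin1, the phosphatidate phosphatase that is the main lipin of adipocytes, was among the steadiest members, with a coefficient of variation of 12.1% in WT and 13.3% in pKO mice. Its values were 2318 to 2998 normalized tags in WT (median 2492) and 2771, 3045, 3469, 2803 and 2422 in pKO replicates 1 to 5. The highest pKO values, in pKO 2 and pKO 3, were above the WT range and the rest inside it. The log2 difference was 0.15 (95% interval -0.12 to 0.42, exact permutation p = 0.20).

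At the last step neither Dgat1 nor Dgat2 was at the unadjusted threshold. Dgat1, which encodes an enzyme with many transmembrane segments unrelated in sequence to DGAT2, was at 2719 to 4050 normalized tags in WT mice (median 3331) and at 2955, 3909, 4767, 3739 and 3409 in pKO replicates 1 to 5. Only pKO 3 was above the WT range. The log2 difference was 0.14 (95% interval -0.18 to 0.47, exact permutation p = 0.35).

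Dgat2, whose enzyme is found on the endoplasmic reticulum and on lipid droplets, was at 72401 to 105910 normalized tags in WT mice (median 99182) and at 88090, 106819, 35600, 97116 and 9904 in pKO replicates 1 to 5. In 3 pKO mice the value was within or just above the WT range, and in pKO 3 and pKO 5 it was far below. These low values rested on 34987 and 9678 tags, and the gene ranked 3 to 7 among all genes in the other pKO mice, 31 in pKO 3 and 151 in pKO 5. The coefficient of variation was 12.8% in WT and 62.8% in pKO mice, and 2.5% of all expressed genes had one as high or higher in pKO. The log2 difference of the genotypes was -0.91 (standard error 0.50, 95% interval -1.98 to 0.15, unadjusted p = 0.087, adjusted p = 0.58, limma), with an exact permutation p of 0.12. It was 0.03 (unadjusted p = 0.85, limma) without pKO replicates 3 and 5. These are the mice with the lowest Dgat2 values and were left out after the data were seen, so this is no test of Dgat2. The difference was -0.33 without pKO replicate 5 alone. Where a mouse with a high value was left out instead, it was -1.19 without pKO replicate 2 and -1.15 without pKO replicate 4, with unadjusted p of 0.036 and 0.044 (limma). These mice are named for their high values, so this is no test of Dgat2 either.

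In the 2 mice with few Dgat2 tags, Dgat1 and the 5 adipocyte markers were not below the WT range. Dgat1 was 4767 in pKO 3 and 3409 in pKO 5, so that Dgat2 had 7.47 and 2.91 tags for each tag of Dgat1 in these mice, against 17.9 to 35.8 in WT mice and 26.0 to 29.8 in the other 3 pKO mice. Adipoq, the adipokine gene of adipocytes, was 88529 and 84933 in pKO 3 and pKO 5 and 59638 to 81109 in WT mice. Cidec, a lipid droplet gene, was 70620 and 79678 there and 45897 to 69053 in WT mice. Lipe, which encodes hormone-sensitive lipase, was 18440 and 16023 against 12014 to 17662. Of the other adipocyte markers, Plin1 was 3700 and 2916 against 1739 to 3303, and Fabp4 was 711649 and 597574 against 471444 to 835899. Other genes of the pathway were below every WT mouse there: 7 of the 22 described below in pKO 3 and 9 in pKO 5, against 3 to 7 in the other pKO mice. Mogat2, Cds1, Acsl4, Pgs1 and Lpin2, named after their values were seen, were among them in both mice. Of these, Mogat2, Cds1 and Acsl4 were also below every WT mouse in pKO 4, where Dgat2 was 97116. Acsl4 and Lpin2 were so in pKO 1 too, and Pgs1 in no other pKO mouse. Of all expressed genes 19.3% were below every WT mouse in pKO 3 and 25% in pKO 5, and 18% to 26.6% in the other pKO mice. The summed level of the other 9 members was 15934 in pKO 3 and 13454 in pKO 5, against 10008 to 14694 in WT mice. Low values were also counted among 1974 genes with a median of at least 1000 normalized tags over the 11 mice. Of these, 14 were under 25% of that median in pKO 3 and 35 in pKO 5. The WT mice had 1 to 20 and the other pKO mice 5 to 12, so pKO 3 was within the WT range. The part of these library differences in the Dgat2 values was not tested.

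**Figure D4:**
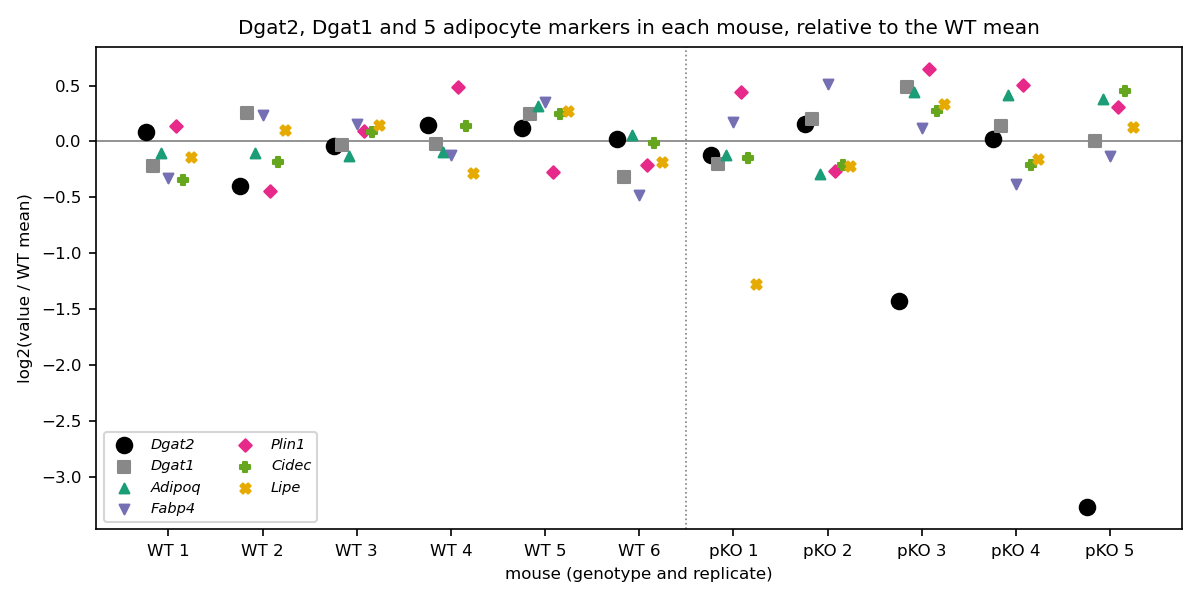
Dgat2, Dgat1 and the adipocyte markers Adipoq, Fabp4, Plin1, Cidec and Lipe in each mouse, as log2 of the value over the WT mean (6 WT left and 5 Mest pKO right of the dotted line). Dgat2 is low in pKO 3 and pKO 5, where Dgat1, Adipoq, Plin1, Cidec and Lipe are at or above the WT mean.

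Mogat1 was the only member of the monoacylglycerol route in the list. It was at 163 to 294 normalized tags in WT mice (median 181) and at 315, 231, 192, 178 and 173 in pKO replicates 1 to 5. The highest mice of both genotypes were close to each other, and the log2 difference was 0.09 (95% interval -0.34 to 0.52, exact permutation p = 0.66). Its paralog Mogat2, named here after its level was seen, was more abundant, at 1228 ± 178 in WT (SD, n = 6) against 974 ± 394 for pKO (SD, n = 5; unadjusted p = 0.13, limma).

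No single mouse held most of the highest or the lowest values. The highest value of a member was in pKO 1, 2, 3 or 4 for 2 members each and in WT 5 and WT 6 for 1 member each. WT 1 held the lowest value of 4 members. Leaving out single mice moved the differences of Agpat9, Agpat4 and Dgat2 most, and for each of these the mice that mattered were other ones: pKO 4 for Agpat9, pKO 1 for Agpat4 and pKO 5 for Dgat2.

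**Figure D5:**
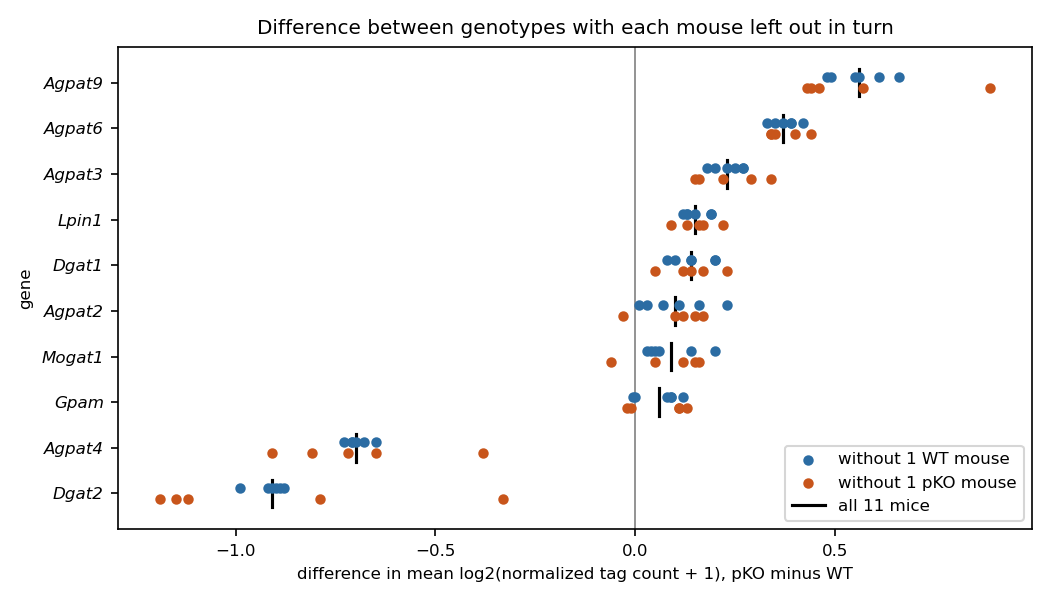
Log2 difference (pKO minus WT) of each member with each mouse left out in turn (blue points without 1 WT mouse, orange points without 1 pKO mouse, black line with all 11 mice). Dgat2 ranges from -1.19 to -0.33 and Agpat9 from 0.43 to 0.89, while Agpat6 keeps between 0.33 and 0.44.

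Of 24 further genes of the pathway, 22 were measured and 21 were among the expressed genes. None passed an adjusted p of at most 0.1, 2 were higher in pKO at an unadjusted p of at most 0.05 and none was lower (limma), beside 4.85% and 5.77% of all expressed genes, and their median log2 difference was -0.10. Pck1, the cytosolic phosphoenolpyruvate carboxykinase through which adipocytes make glycerol 3-phosphate, was at 9312 to 18715 normalized tags in WT mice and at 36261, 8404, 41343, 26793 and 23979 in pKO replicates 1 to 5. For this gene 4 pKO mice were above the WT range and pKO 2 was below it, with a log2 difference of 0.81 (unadjusted p = 0.031, adjusted p = 0.48, limma, exact permutation p = 0.076). Cebpa, a transcription factor of mature adipocytes, was at 20972 to 26742 in WT mice and at 33501, 24398, 31540, 27310 and 30901 in pKO mice. Here pKO 2 alone was inside the WT range. Its log2 difference was 0.35 (unadjusted p = 0.017, adjusted p = 0.43, limma, exact permutation p = 0.011). For both genes and for Agpat6, pKO 2 was thus the lowest pKO mouse. The most abundant of the 22 was Chpt1, the cholinephosphotransferase that uses diacylglycerol for phosphatidylcholine, at 59987 ± 10700 in WT (SD, n = 6) against 75727 ± 25399 for pKO (SD, n = 5; exact permutation p = 0.29).

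By list, the 3 other genes of the acylation steps (Gpat2 was not among the genes analysed here), the 2 other lipins, the 4 acyl-CoA synthetases and the 5 genes of the branch to phospholipids held no gene at the unadjusted threshold. The genes of glycerol 3-phosphate supply held 1 of 3, Pck1, and the transcription factors 1 of 4, Cebpa, with Pparg at 8860 ± 1305 in WT (SD, n = 6) against 9813 ± 2231 for pKO (SD, n = 5).

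Markers of other cell types were also measured. The 4 mesothelial markers had a summed level of 659 to 918 in WT mice and of 1544, 1099, 1219, 1238 and 764 in pKO replicates 1 to 5. Krt19 and Msln of this list were higher in pKO at the unadjusted threshold, with Krt19 above the WT range in 5 of 5 pKO mice (log2 difference 0.73, unadjusted p = 0.00059, adjusted p = 0.25, limma). The 5 macrophage markers summed to 1701 to 2393 in WT and 1428 to 2460 in pKO mice, with Cd14 lower at the unadjusted threshold. The 3 endothelial markers summed to 2675 to 3818 in WT and 2858 to 3814 in pKO mice, with Kdr higher at that threshold (log2 difference 0.44, unadjusted p = 0.018, limma) and Pecam1 at -0.39 (unadjusted p = 0.051, limma), below every WT mouse in 3 pKO mice. None of the 5 adipocyte markers was at the threshold. Of the 20 markers measured, 16 were among the expressed genes. Of these 16, 3 were thus higher and 1 lower, where 4.85% and 5.77% of all expressed genes were. T cell markers summed to at most 40.2, and the one marker of the epididymis epithelium that was measured, Adam7, was at 0 in 3 WT and 3 pKO mice and at most 43.8. The part of these markers in the values of Agpat6 and Agpat4 was not tested.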

How the data were processed

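Tag counts of 11 eWAT libraries were analysed. The authors aligned SOLiD SAGE tags with a modified SOLiD SAGE analysis software, and their processing notes name mm10 and edgeR 3.2.3. The deposited signal is a tag count per gene scaled for library size. Dividing by the smallest step of each library gave whole tags for 100% of 169983 values (within 0.001 tag), and 15 tags was the lowest total of a listed gene over the libraries. No columns were left unused.

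The main test was limma 3.58.1 with a mean-variance trend on log2(value + 1), two-sided, on every one of the 15453 genes, and p-values were adjusted by Benjamini-Hochberg. A fold change on this scale understates that of genes with few tags. Genes averaging 50 or more in either genotype (expressed genes) were counted at an adjusted p of up to 0.1 and at an unadjusted p of up to 0.05, the thresholds of the study. Single members were also tested with an exact two-sided permutation test over 462 assignments (smallest p 0.0022). Intervals are 95%. Alternatives were edgeR 4.0.16, DESeq2 1.42.0 and voom on the recovered tags, other scalings, pseudocounts of 0.5 and 10, a filter, no trend, a replicate block and each mouse left out. No batch was given for the libraries. The fits were checked on simulated counts.

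Every member is named, and further pathway genes are named where they were at the unadjusted threshold or were the most abundant. The members and lists were chosen with earlier results of these data known. Predicted tags came from GENCODE M21 transcripts (GRCm38). No 2 libraries agreed within sampling noise.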

Additional observations from a re-analysis of the deposited data

How the results depend on the processing

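No member passed an adjusted p of at most 0.1 in any of the 22 alternatives, where the lowest adjusted p was 0.15 (Agpat6, DESeq2). Of 220 member differences recomputed, 201 kept their direction and their side of an unadjusted p of 0.05, 7 lost and 6 gained that threshold, and 6 changed sign. The sign changes were Gpam without WT replicate 1 (-0.004), pKO replicate 1 (-0.01) or pKO replicate 2 (-0.02), Agpat2 without pKO replicate 2 (-0.03), Mogat1 without pKO replicate 1 (-0.06), and Dgat2 without pKO replicates 3 and 5 (0.03). With each mouse left out the highest differences of Gpam, Agpat2 and Mogat1 were 0.13, 0.23 and 0.20. The alternative without pKO replicates 3 and 5 was chosen after seeing the data. The cause of the sign changes was not tested. Agpat6 was at the unadjusted threshold in 21 of 22 alternatives (0.056 without pKO replicates 3 and 5) and Agpat4 in 16. The count of members at the unadjusted threshold was 1 without pKO replicates 3 and 5, where only Agpat4 was left, and 1 to 4 with a mouse left out. By the exact permutation test it was 1 to 4 with a mouse left out, against 2 with all mice. Over all genes, 5 passed an adjusted p of at most 0.1. That count was 121 with DESeq2 (58 higher and 63 lower in pKO), 9 with expressed genes alone in the fit, 3 without pKO replicates 3 and 5, and 3 to 91 with a mouse left out. At the unadjusted threshold 45.6% of 1052 genes were higher in pKO, against 31.2% of 1056 with total-count scaling, which changed no member's sign and left Agpat6 at 0.34 and Agpat4 at -0.73. Total-count scaling moved the median log2 difference of all genes from 0.01 to -0.03.

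With the replicate number as a block (5 pairs), 1 gene passed the adjusted threshold, and the block changed no call on a member, with Agpat6 at 0.42 and Agpat4 at -0.65. The numbers did not pair the mice: the same-number correlations of deviations from the genotype means lay between -0.09 and 0.14 (mean -0.024, against 0.005 for different numbers), and 0 of 5 pKO mice correlated best with their own number.

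The lowest count of a member in any library was 43 tags, so every member was counted in every mouse.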
